A study of Hipposideros armiger and Mus musculus with 20 samples.

Results

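Interscapular brown fat (iBAT) was set against intra-abdominal white fat (aWAT) of great roundleaf bats (Hipposideros armiger) held at 10 °C. The comparison used 4 of the 20 libraries of the series, picked by their labels: 1 female and 1 male library of iBAT at 10 °C, and 1 female and 1 male library of aWAT at 10 °C. Other libraries were used beside them: iBAT and aWAT at 30 °C (1 female and 1 male each), and subcutaneous white fat (sWAT) at both temperatures, which entered the fit. Per the labels the animals were wild type bats kept for 7 days at the stated temperature. Expression was measured by mRNA sequencing and given as FPKM, a fragment count corrected for transcript length and library size, so levels are per length. Pairs of values below give the female library first and the male library second. With 1 library of each sex per group, sex and replicate cannot be told apart, and nothing in the labels says whether depots of one sex came from one animal or how many animals a library holds.

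Brown fat burns fatty acids in its mitochondria and gives off the energy as heat through the uncoupling protein Ucp1. White fat stores triglyceride and secretes hormones such as leptin, and some white depots take on Ucp1 and mitochondria in the cold, which is called browning. Fat depots also keep a record of where in the body they formed: Hox genes, which are read in order along the body axis, and T-box, Zic and other transcription factors stay switched on or off in their cells. Fat inside the abdomen is covered by mesothelium, a sheet of cells with genes of its own. The question was what still separated the brown depot from the abdominal one in the cold, when both carried Ucp1.

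In the cold both depots held Ucp1 (ENSMUSG00000031710) at 2939 FPKM or more in each library. No gene of the electron transport chain or the tricarboxylic acid (TCA) cycle passed the test between the depots, but both lists leaned toward iBAT. In 32 of 41 electron transport and 15 of 22 TCA genes both iBAT libraries lay above both aWAT libraries, against 10.2% of all genes. Their median differences were 0.59 and 0.57. Genes of body position did pass the test. Of these, 11 Hox genes of the HoxA and HoxC clusters and the regulators Wt1, Osr1, Bnc1, Tcf21 and Gata5 were lower in iBAT. The T-box genes Tbx15 and Tbx22 and the zinc-finger gene Zic1 were higher. Of 17 mesothelial genes tested, 6 were lower in iBAT, a count that fell to 1 or 2 without any 1 of 3 of the libraries. Over all genes, 90 of 11025 tested (0.816%) differed at an adjusted p under 0.05 (limma on log2(FPKM + 1), Benjamini-Hochberg over all genes tested), 19 higher (0.172%) and 71 lower (0.644%) in iBAT than in aWAT. In the warm, in other libraries, 2230 genes (20.2%) differed, 844 higher (7.66%) and 1386 lower (12.6%). Differences are given on the log2(FPKM + 1) scale relative to the median over all genes tested, which was -0.15 at both temperatures, with the standard error of the fit and 2 libraries per group. This scale understates the change of genes with low values.

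The cold count leaned on the libraries and on the fit. Leaving out 1 of the 4 libraries gave between 5 and 49 higher and between 10 and 164 lower genes, and 76 of the 90 genes lost their call in at least 1 of these 4 omissions. The 14 others were Hoxa9, Hoxa10, Hoxa11, Hoxa13, Hoxc6, Hoxc8, Osr1, Wt1, Tbx15, Tbx22, Aard, Emilin3, Ptgis and Tmem98. The female aWAT library stood nearer to brown fat than the male one did. Its log2(FPKM + 1) values correlated at 0.977 with the female iBAT library and at 0.966 with the male aWAT library, across genes, which are not independent replicates. Without it, 49 genes were higher and 164 lower in iBAT, 76 of the 90 among them. Without the male aWAT library, 5 were higher and 18 lower (20 of the 90), without the female iBAT library 11 and 18 (25 of the 90), and without the male iBAT library 5 and 10 (15 of the 90). A fit to the 4 cold libraries alone made 0 calls by limma, with 1119 genes at an unadjusted p under 0.05, against 1341 in the fit to all 12 bat libraries. Of those 1341, 273 lay above (2.48% of all genes tested) and 1068 below (9.69%), shares against which the unadjusted counts of each list below are to be read; median-ratio scaling turned them to 618 above and 606 below. A fit with sex as a term within each temperature, added after seeing the data, gave 53 higher and 237 lower genes. Quantile normalization gave 24 higher and 46 lower, 34.3% higher against 21.1%. Depth, read from the steps between low values, moved with the depot: relative to the female iBAT library it was 1.00 and 0.950 in iBAT, against 1.28 and 1.24 in aWAT, and its part in the results was not tested. Summed FPKM lay between 342560 and 358510 in the 4 libraries.

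**Figure D1:**
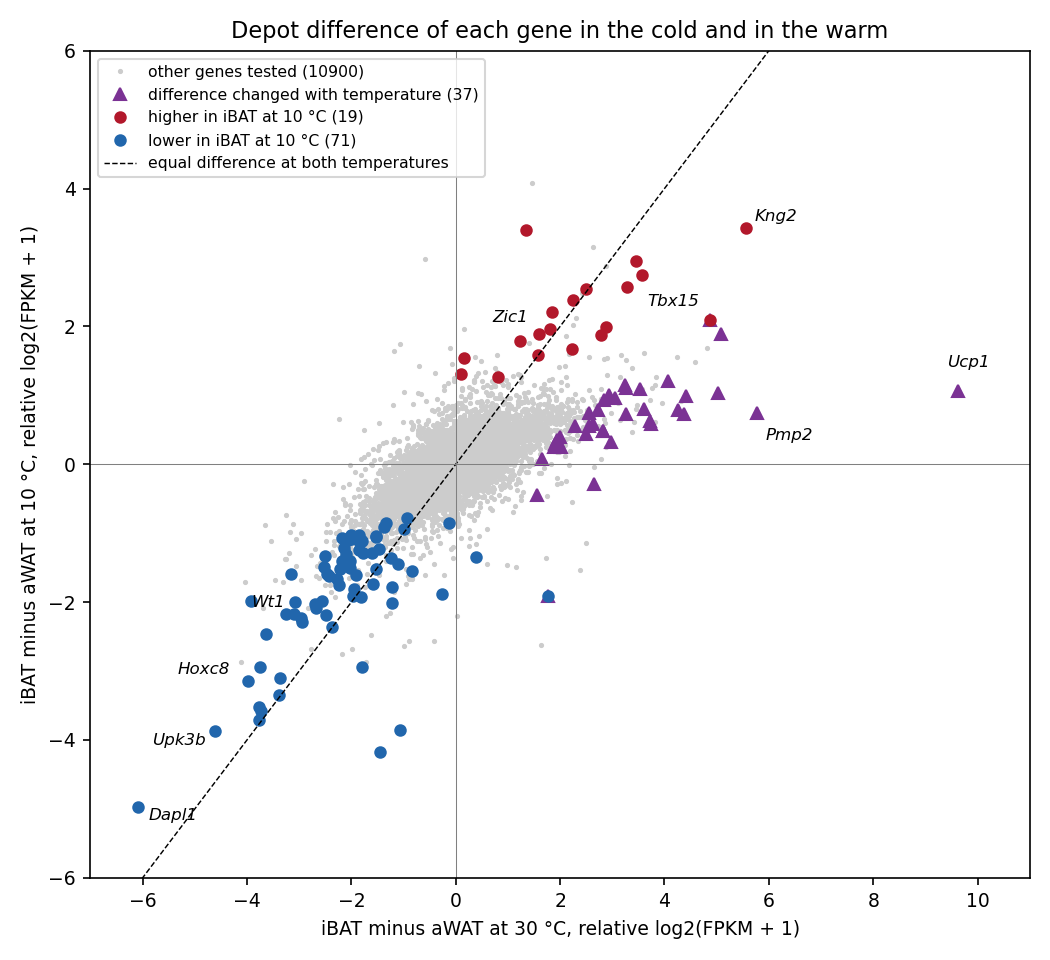
Depot difference of each tested gene at 10 °C (y axis) against 30 °C (x axis), both iBAT minus aWAT in relative log2(FPKM + 1). Red and blue points are the 19 higher and 71 lower genes of the cold, purple triangles the 37 genes whose depot difference itself changed with temperature, which lie below the dashed line of equal difference; 2 genes, Etnppl among them, are in both sets, and genes listed at 0 in a depot, such as Dapl1 and Wt1, are drawn at their fitted value.

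Ucp1 had 10405 and 7239 FPKM in iBAT, against 7184 and 2939 FPKM in aWAT, in the cold. The groups did not overlap, as for 10.2% of all genes tested in that direction, but the male iBAT library was nearly level with the female aWAT library. The relative log2 difference was 1.06 ± 0.35 (adjusted p = 0.319), and without the female aWAT library it was 1.79 (adjusted p = 0.0222), so that 1 library decided this call. In the warm, Ucp1 had 2886 and 2670 FPKM in iBAT, against 3.18 and 2.67 FPKM in aWAT (9.62 ± 0.35, adjusted p = 1.38e-06). The change of the depot difference between the temperatures was -8.57 ± 0.50 (adjusted p = 0.000109), and it passed the test under every alternative run, with adjusted p between 7.73e-06 and 0.00863. In sWAT of the cold bats Ucp1 had 0.826 and 1.20 FPKM.

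Among 28 tested genes of the brown fat and thermogenic list, 1 (Zic1, a positional gene) was higher in iBAT in the cold and none lower, with 7 above and 0 below at an unadjusted p under 0.05. Their median difference was 0.37, against 0 over all genes tested. In the warm 16 of the 28 were higher and 0 lower, with a median of 1.74. Cidea, a lipid droplet protein of thermogenic fat, had 1289 and 1244 FPKM in iBAT, against 1587 and 1846 FPKM in aWAT (-0.29 ± 0.48, adjusted p = 0.749). Both aWAT libraries were above both iBAT libraries, as for 31.7% of all genes tested, and the gap was within the error of the fit. Cidea was also high in sWAT, which had almost no Ucp1, at 1447 and 770 FPKM in the cold and 481 and 632 FPKM in the warm. Cox7a1, a cytochrome oxidase subunit of muscle and brown fat, had 961 and 1070 FPKM in iBAT, against 775 and 570 FPKM in aWAT (0.75 ± 0.26, adjusted p = 0.376). Letmd1, a protein of the inner mitochondrial membrane that mice need for heat production in brown fat, had 123 and 123 FPKM in iBAT, against 73.1 and 40.7 FPKM in aWAT (1.30 ± 0.29, adjusted p = 0.123). The groups did not overlap for either gene, as for 10.2% of all genes tested in that direction. Ckmt2, the mitochondrial creatine kinase, had 107 and 134 FPKM in iBAT, against 63.3 and 34.3 FPKM in aWAT (1.49 ± 0.62, adjusted p = 0.424). Without the female aWAT library 5 of the 28 were higher and 1 lower, and without the male library of either depot 0 were called.

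**Figure D2:**
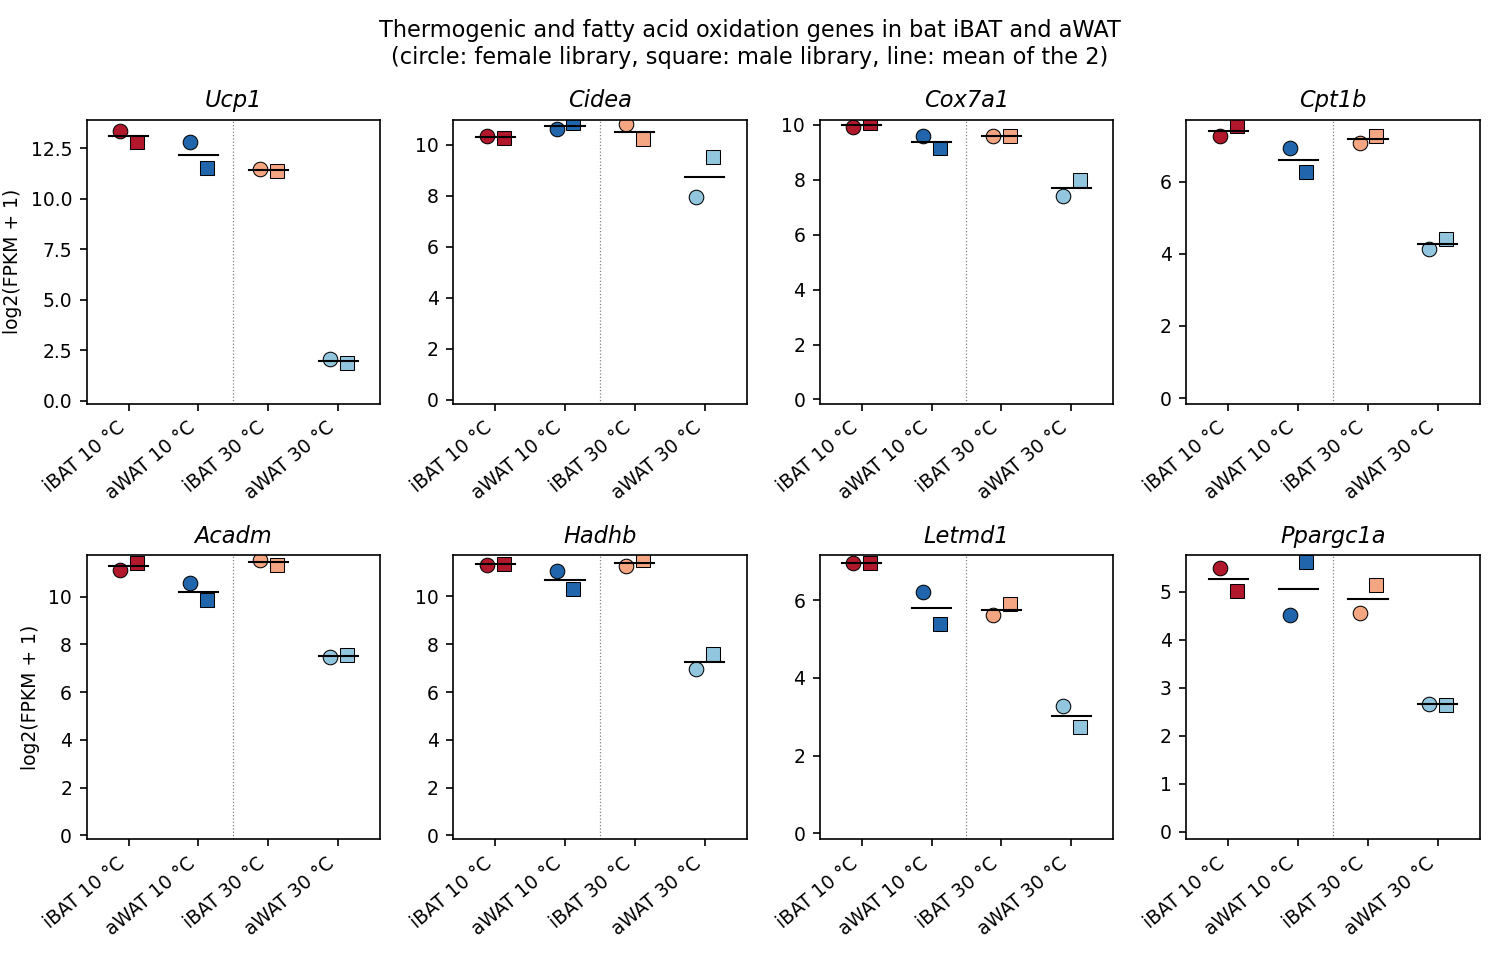
Expression of 8 thermogenic and fatty acid oxidation genes in log2(FPKM + 1), 1 panel a gene, by depot and temperature; circles are female libraries, squares male libraries and lines the mean of the 2. At 10 °C both iBAT points lie above both aWAT points for Ucp1, Cox7a1, Cpt1b, Acadm, Hadhb and Letmd1. They lie below for Cidea and overlap for Ppargc1a. The gaps between the means are smaller than at 30 °C, where the aWAT points lie far below those of iBAT for Ucp1, Cpt1b, Acadm and Hadhb.

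No regulator of brown fat passed the test between the depots in the cold: of 27 tested, 0 were called by limma in either direction, with 1 higher and 2 lower at an unadjusted p under 0.05, near the shares of all genes. Ppargc1a, the coactivator that drives mitochondrial genes, had 43.9 and 31.4 FPKM in iBAT, against 21.8 and 47.9 FPKM in aWAT, and the groups overlapped (0.34 ± 0.56, adjusted p = 0.923). Prdm16, a regulator of brown fat fate, had 6.49 and 1.19 FPKM in iBAT, against 4.31 and 0.300 FPKM in aWAT, lower in the male library of each depot. Ebf2, which marks brown fat precursors in mice, had 14.6 and 12.3 FPKM in iBAT, against 15.5 and 21.6 FPKM in aWAT (-0.27 ± 0.23, adjusted p = 0.50). Pparg, the master regulator of fat cells, had 201 and 158 FPKM in iBAT, against 184 and 178 FPKM in aWAT. Lhx8, a homeobox gene of mouse brown fat, had 1.43 and 1.5 FPKM in iBAT, against 1.12 and 0.287 FPKM in aWAT (adjusted p = 0.661). Dio2, which activates thyroid hormone, had 0.613 and 1.41 FPKM in iBAT, against 0.436 and 4.62 FPKM in aWAT. At 30 °C it had 0.312 and 0.132 FPKM in iBAT, against 0.250 and 0.218 FPKM in aWAT. Adrb3, the adrenergic receptor of fat, had 31.5 and 27.5 FPKM in iBAT, against 46.2 and 36.8 FPKM in aWAT (-0.33 ± 0.61, adjusted p = 0.792). Fgf21, a secreted factor, was at or near 0 in all 4 libraries and was not tested.

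Mitochondrial lists leaned toward iBAT in the cold, and the electron transport and TCA lists had 0 calls under each omission of a library as well. Of 41 nuclear genes of the electron transport chain 0 were called, with 12 higher and 0 lower at an unadjusted p under 0.05, against 2.48% and 9.69% of all genes. Those 12 were 0 without the male library of either depot, 3 without the female iBAT library and 24 without the female aWAT library. Their median difference was 0.59, and in 32 of the 41 both iBAT libraries lay above both aWAT libraries, against 10.2% of all genes tested. In the warm 33 were higher and 2 lower, with a median of 1.60. Of 22 genes of the TCA cycle and pyruvate dehydrogenase 0 were called in the cold, with 4 higher and 0 lower at an unadjusted p under 0.05 and a median of 0.57, against 19 higher and a median of 1.91 in the warm. Summed over each list, the electron transport genes had 29830 and 32580 FPKM in iBAT, against 25540 and 17710 FPKM in aWAT, and the TCA genes 12090 and 12410 FPKM in iBAT, against 10660 and 7202 FPKM in aWAT. The male aWAT library was the lowest of the 4 in both sums. Uqcrfs1, the iron-sulphur subunit of complex III, had 526 and 577 FPKM in iBAT, against 401 and 261 FPKM in aWAT (0.91 ± 0.24, adjusted p = 0.218). Atp5b, a catalytic subunit of the ATP synthase, had 6442 and 8167 FPKM in iBAT, against 4999 and 3450 FPKM in aWAT (0.95 ± 0.33, adjusted p = 0.351).

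Of 23 genes of mitochondrial fatty acid oxidation, none was called higher and Acsf2 was lower in iBAT in the cold, with 6 above and 1 below at an unadjusted p under 0.05 and a median of 0.55. Without the female aWAT library 2 were higher. Acsf2, an acyl-CoA synthetase, had 16.0 and 11.5 FPKM in iBAT, against 72.9 and 47.1 FPKM in aWAT (-1.88 ± 0.29, adjusted p = 0.0124). Of the 23 genes 20 were fitted above 0, and Acsf2 lost its call without either iBAT library. At 30 °C it had 34.4 and 59.7 FPKM in iBAT, against 62.9 and 59.1 FPKM in aWAT. In the warm 18 of the 23 were higher in iBAT, with a median of 1.91. Acadm, the medium-chain acyl-CoA dehydrogenase, had 2234 and 2745 FPKM in iBAT, against 1512 and 926 FPKM in aWAT in the cold (1.21 ± 0.25, adjusted p = 0.108). Cpt1b, which carries fatty acids into mitochondria, had 154 and 186 FPKM in iBAT, against 121 and 75.4 FPKM in aWAT (0.96 ± 0.23, adjusted p = 0.156). For both genes the male aWAT library was the lowest.

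The depot difference itself was more negative in the cold than in the warm for 37 of 11025 genes (0.336%) and more positive for 0 by limma, with 711 and 411 at an unadjusted p under 0.05. With the 4 depot groups alone, 4 genes passed, with 1025 at an unadjusted p under 0.05, and median-ratio scaling gave 16. Leaving out 1 library gave between 1 and 66, 1 without the male iBAT library of 30 °C and 66 without the male aWAT library of 10 °C. Fatty acid oxidation gave 9 of the 37, the thermogenic list 3, and the electron transport and TCA lists 1 each. The largest after Ucp1 was Pmp2, a fatty acid-binding protein of a family of close relatives, whose reads a counter could split. It had 204 and 197 FPKM in iBAT, against 203 and 85.1 FPKM in aWAT in the cold, and 152 and 160 FPKM in iBAT, against 2.01 and 2.34 FPKM in aWAT in the warm (change of the difference -5.04 ± 0.55, adjusted p = 0.00985). Hadhb, a subunit of the trifunctional protein of fatty acid oxidation, had 2581 and 2633 FPKM in iBAT, against 2172 and 1289 FPKM in aWAT in the cold, and 2455 and 2909 FPKM in iBAT, against 124 and 192 FPKM in aWAT in the warm (-3.48 ± 0.41, adjusted p = 0.0143). For Hadhb the iBAT values of the 2 temperatures overlapped, and the aWAT values did not.

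**Figure D3:**
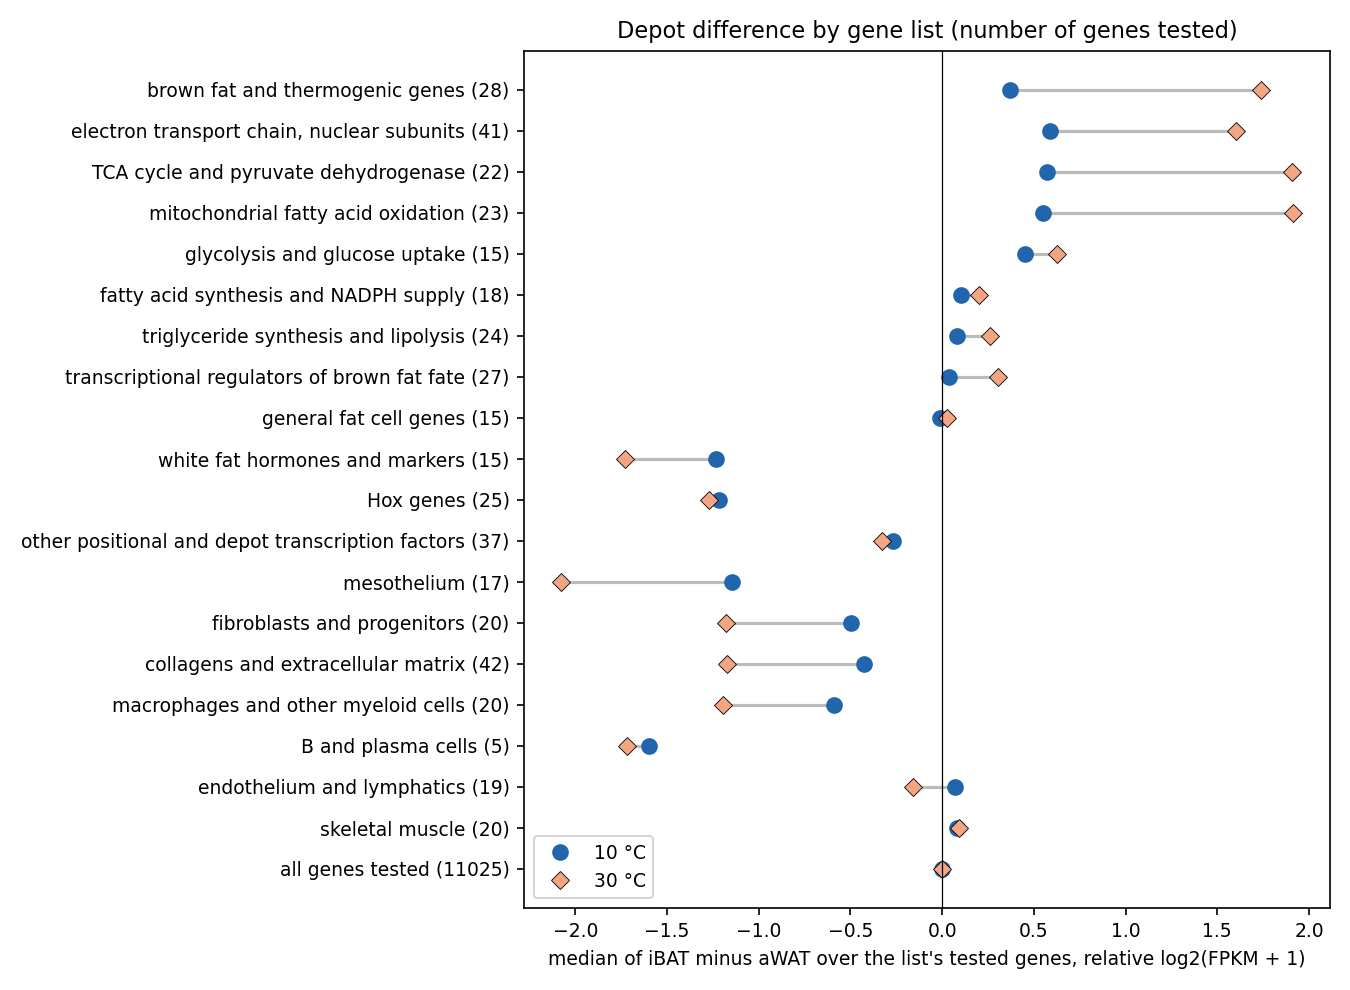
Median depot difference (iBAT minus aWAT, relative log2(FPKM + 1)) over the tested genes of each list at 10 °C (blue circles) and 30 °C (orange diamonds), with the number of genes tested in brackets. The mitochondrial lists sit at 0.55 to 0.59 at 10 °C and at 1.60 to 1.91 at 30 °C, while the Hox list is at -1.21 and -1.27; that median also holds fitted values of genes listed at 0 in iBAT.

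Hox genes, which encode transcription factors of the body axis, were the list with most calls in the cold: 0 of 25 tested were higher and 11 lower in iBAT, against 0.172% and 0.644% of all genes, with 5 above and 15 below at an unadjusted p under 0.05. Leaving out 1 library gave between 6 and 10 lower. Some settings gave 1 or 2 higher ones, 2 under median-ratio scaling and under quantile normalization, while the 4 cold libraries alone gave 0 calls. The median difference was -1.21 over all 25 and -0.52 over the 20 that were not at 0 in both libraries of a depot. Among the called genes, no iBAT library reached 1 FPKM of Hoxa9, Hoxa10, Hoxa11, Hoxa13, Hoxc4, Hoxc6, Hoxc8, Hoxc9 or Hoxc10. These passed the filter through white fat alone and could hardly come out higher in iBAT. Hoxc8 had 0.178 and 0.300 FPKM in iBAT, against 10.6 and 11.5 FPKM in aWAT (-3.14 ± 0.21, adjusted p = 0.000281). Both sexes gave nearly the same pair, and the warm libraries had 0.20 and 0.211 FPKM in iBAT, against 16.7 and 24.2 FPKM in aWAT. Hoxa11 had 0 and 0.0383 FPKM in iBAT, against 4.42 and 5.24 FPKM in aWAT (-2.37 ± 0.19, adjusted p = 0.000617). Hoxc6 had 0.309 and 0.300 FPKM in iBAT, against 5.35 and 5.60 FPKM in aWAT (-2.17 ± 0.23, adjusted p = 0.00223). The female aWAT library, nearest to iBAT over all genes, lay with the male aWAT library in these 3. These 3 were picked among the genes called between the depots, so this is no test of that library. Cold sWAT was not low in them either. It had 18.2 and 23.9 FPKM of Hoxc8, 4.13 and 4.50 FPKM of Hoxa11 and 8.26 and 12.1 FPKM of Hoxc6.

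Within the HoxA and HoxC clusters most calls lay at the high numbers, a grouping made after the values were seen and not tested. Of 11 tested HoxA and HoxC genes numbered 6 to 13, which act toward the rear of the body, 10 were lower in iBAT. Of 5 numbered 1 to 5, which act nearer the head, Hoxc4 was. HoxB and HoxD did not show this: of 9 genes none was called and 7 were fitted above 0, and of their 4 numbered 6 to 13, both HoxD genes were fitted above 0 and both HoxB genes below. Hoxa9 had 0.194 and 0.0952 FPKM in iBAT, against 3.46 and 4.06 FPKM in aWAT (-1.91 ± 0.18, adjusted p = 0.00118). Hoxa13 was listed at 0 in both iBAT libraries, against 3.66 and 3.30 FPKM in aWAT (adjusted p = 0.00289), and Hoxa10 at 0 against 3.38 and 2.43 FPKM (adjusted p = 0.00263). Hoxc9 and Hoxc10 were listed at 0 in iBAT as well, against 1.57 and 1.83 FPKM and 2.46 and 1.47 FPKM in aWAT. Hoxa7 had 2.40 and 2.17 FPKM in iBAT, against 13.7 and 8.97 FPKM in aWAT (-1.74 ± 0.24, adjusted p = 0.00672). The HoxA genes nearer the head leaned the other way without passing the test. Hoxa5 had 22.9 and 34.6 FPKM in iBAT, against 20.3 and 21.4 FPKM in aWAT (0.56 ± 0.21, adjusted p = 0.462). Hoxa3 had 5.62 and 5.81 FPKM in iBAT, against 3.54 and 3.26 FPKM in aWAT (0.76 ± 0.17, adjusted p = 0.166). A value of 0 was not read as absence, since genes that every cell uses, such as the actin gene Actb, were at or near 0 in the iBAT and aWAT libraries. Cold sWAT had 6.155 and 20.15 FPKM of Actb.

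Among 37 other positional and depot transcription factors, 2 were higher (Tbx15, Zic1) and 5 lower (Wt1, Osr1, Bnc1, Tcf21, Gata5) in iBAT in the cold, with 4 above and 12 below at an unadjusted p under 0.05. Without the female iBAT library 2 were higher and 2 lower, without the male library of either depot 1 and 2, and without the female aWAT library 2 and 5. Tbx15, a T-box factor of subcutaneous and brown fat in mice, had 4.96 and 7.73 FPKM in iBAT, against 0.255 and 0.131 FPKM in aWAT (2.74 ± 0.27, adjusted p = 0.00223). Tbx22, a T-box factor known from the palate, had 5.59 and 8.15 FPKM in iBAT, against 0.0719 and 0.148 FPKM in aWAT (2.95 ± 0.29, adjusted p = 0.00223). Cold sWAT, which had almost no Ucp1, was near iBAT in both, at 9.43 and 10.5 FPKM of Tbx15 and 9.96 and 15.0 FPKM of Tbx22. Zic1, a zinc-finger factor that marks classical brown fat in mice, had 2.08 and 3.08 FPKM in iBAT, against 0 and 0.0151 FPKM in aWAT and 0 and 0.506 FPKM in sWAT (iBAT minus aWAT 1.96 ± 0.23, adjusted p = 0.0068). The depot differences of Tbx15, Tbx22 and Zic1 were near those of the warm, at 3.57, 3.46 and 1.8, and their changes with temperature did not pass the test (adjusted p = 0.503, 0.778 and 0.938). No aWAT library reached 1 FPKM of these genes, and no iBAT library reached 1 FPKM of Wt1, Bnc1, Tcf21 or Gata5. Each passed the filter without that depot and could hardly come out the other way.

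The regulators called lower, and Hand2, were low in iBAT at both temperatures. Wt1, a factor of mesothelium and of visceral fat precursors in mice, was listed at 0 in both iBAT libraries, against 3.51 and 4.93 FPKM in aWAT (adjusted p = 0.00107). Osr1, a zinc-finger factor of the mesoderm that forms the urogenital organs, had 1.40 and 1.12 FPKM in iBAT, against 9.57 and 10.9 FPKM in aWAT (-2.17 ± 0.22, adjusted p = 0.00176). Bnc1, a zinc-finger protein, and Tcf21, a factor of visceral mesenchyme, were listed at 0 in iBAT, against 2.51 and 4.46 FPKM and 1.45 and 1.95 FPKM in aWAT. Gata5 had 0.0837 and 0 FPKM in iBAT, against 1.18 and 1.76 FPKM in aWAT (-1.09 ± 0.22, adjusted p = 0.0352). Hand2, a factor of lateral mesoderm, had 0.142 and 0.302 FPKM in iBAT, against 2.01 and 2.42 FPKM in aWAT, and did not pass the test (-1.25 ± 0.31, adjusted p = 0.0874). In the warm aWAT libraries Wt1 had 7.43 and 8.54 FPKM and Osr1 20.0 and 19.3 FPKM. Not all of these genes were particular to the abdominal depot. Cold sWAT was level with cold aWAT in Hand2, at 2.06 and 2.31 FPKM. It lay between the depots in Osr1, at 5.29 and 6.80 FPKM, and in Wt1, at 1.03 and 1.19 FPKM. Bnc1, Tcf21 and Gata5 were low in cold sWAT, at 0 and 0.547, 0 and 0.248, and 0 and 0.343 FPKM.

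**Figure D4:**
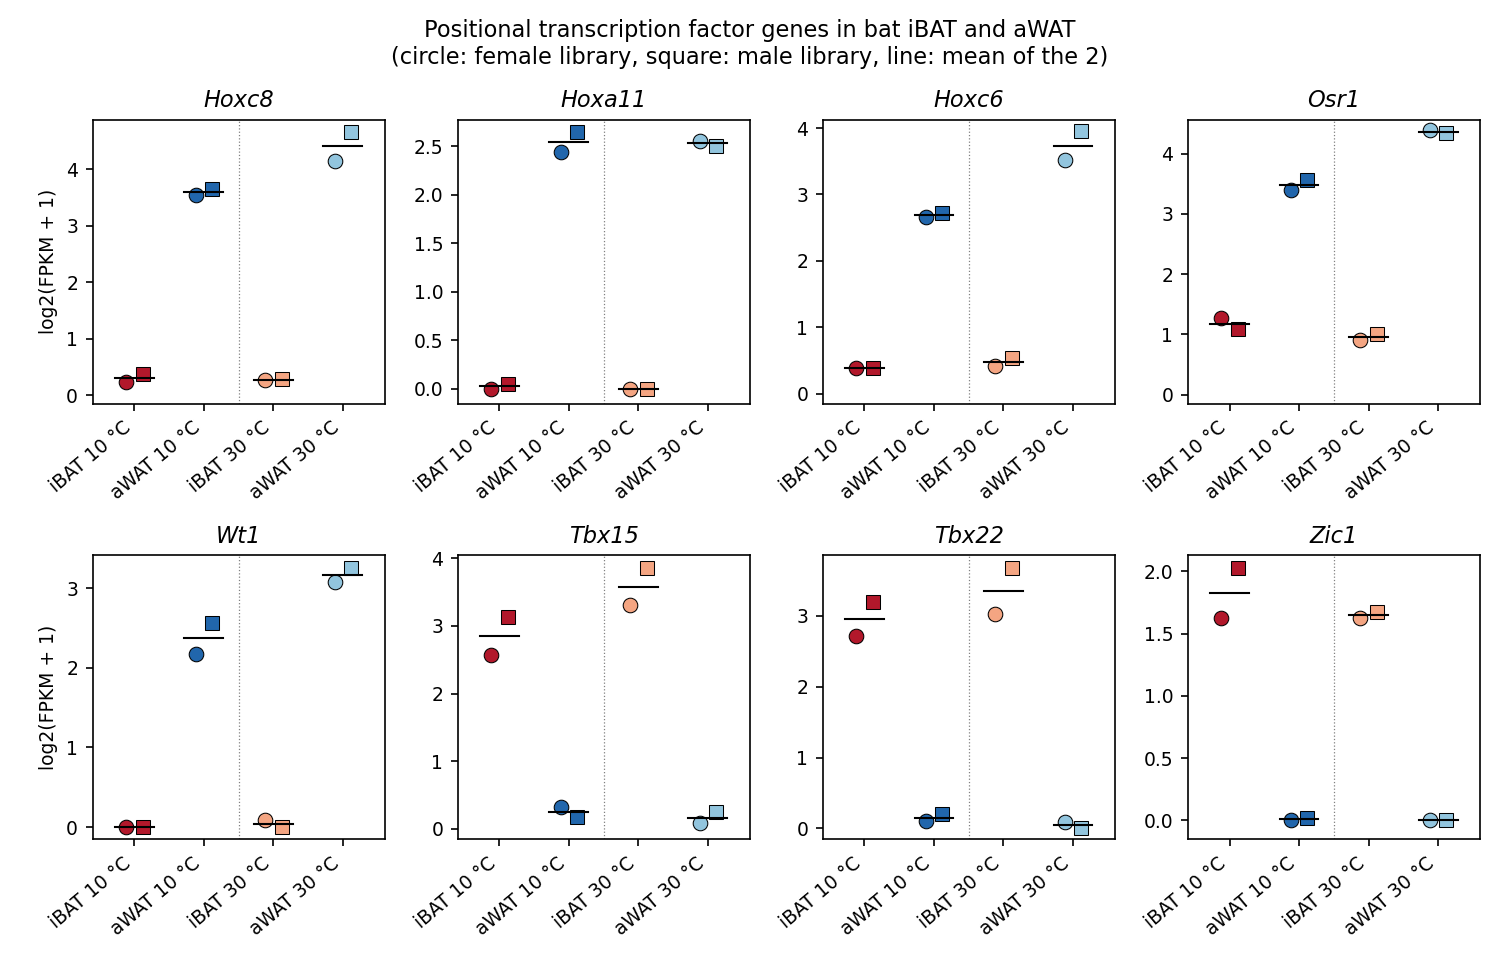
Expression of 8 positional transcription factor genes in log2(FPKM + 1), 1 panel a gene, by depot and temperature; circles are female libraries, squares male libraries and lines the mean of the 2. The iBAT and aWAT points lie apart at 10 °C as at 30 °C for each of the 8 genes, with Hoxc8, Hoxa11, Hoxc6, Osr1 and Wt1 low and Tbx15, Tbx22 and Zic1 high in iBAT.

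Part of the mesothelial list was lower in iBAT: of 17 tested, 0 were higher and 6 lower (Upk3b, Upk1b, Msln, Wt1, Bnc1 and Igfbp5), with 0 above and 11 below at an unadjusted p under 0.05. Their median difference was -1.14, and -0.60 over the 13 not at 0 in both libraries of a depot. No iBAT library reached 1 FPKM of Upk3b, Upk1b, Msln, Wt1 or Bnc1. These genes passed the filter through white fat alone and could hardly come out higher in iBAT, so the direction of the list is partly set by the filter. The cover of mesothelium on abdominal fat and the RNA per cell cannot be told apart in bulk tissue, here or for any other cell type below. Upk3b, a uroplakin of mesothelium, had 0.439 and 0.233 FPKM in iBAT, against 12.8 and 32.7 FPKM in aWAT (-3.87 ± 0.51, adjusted p = 0.00669). Msln, the mesothelial surface protein mesothelin, had 0.254 and 0.275 FPKM in iBAT, against 10.7 and 22.8 FPKM in aWAT (-3.57 ± 0.54, adjusted p = 0.0124). Upk1b was listed at 0 in both iBAT libraries, against 8.57 and 16.0 FPKM in aWAT (adjusted p = 0.00396). The summed list was 90.2 and 84.4 FPKM in iBAT, against 155 and 362 FPKM in aWAT, and 74.3 and 71.4 FPKM against 407 and 452 FPKM in the warm. The male aWAT library held more than the female one for each of these genes. Leaving out 1 library gave between 1 and 9 lower genes of this list, 9 without the female aWAT library, 1 without the male iBAT library and 2 without either of the others. Wt1 and Bnc1 are in both this list and the positional one, and the part of mesothelial cells in the positional results was not tested.

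Immune, fibroblast and matrix lists had medians below 0, with few calls, while endothelium, skeletal muscle and red cells had medians of 0.07, 0.08 and 0.26. Of 20 macrophage and other myeloid genes 0 were higher and Cd14, an endotoxin receptor, was lower in iBAT, with 0 above and 10 below at an unadjusted p under 0.05. Cd14 had 7.29 and 8.71 FPKM in iBAT, against 15.3 and 20.3 FPKM in aWAT (-0.91 ± 0.20, adjusted p = 0.0418), and it was called in only 1 of the 4 omissions, that of the female aWAT library. Siglec1, the macrophage receptor sialoadhesin, is not among these 20 genes and went the other way. It had 6.67 and 8.39 FPKM in iBAT, against 1.43 and 1.63 FPKM in aWAT (1.89 ± 0.26, adjusted p = 0.0146). The summed myeloid list was 135 and 173 FPKM in iBAT, against 220 and 391 FPKM in aWAT. Of 5 B and plasma cell genes tested 0 were called, with 4 below at an unadjusted p under 0.05. Over all 13 genes of that list with values, the sum was 18.0 and 13.8 FPKM in iBAT, against 57.9 and 153 FPKM in aWAT. Igkc, an immunoglobulin light chain gene, gave 6.63 and 6.86 FPKM of it in iBAT, against 37.3 and 102 FPKM in aWAT. Of 42 collagen and matrix genes Lamb1, a basement membrane laminin, was lower, and of 20 fibroblast and progenitor genes Scara5, a ferritin receptor of fibroblasts. Scara5 had 5.94 and 7.21 FPKM in iBAT, against 17.5 and 24.0 FPKM in aWAT (-1.37 ± 0.28, adjusted p = 0.0418). In the warm 23 matrix genes and 10 fibroblast genes were lower in iBAT, and in the cold without the female aWAT library 6 and 4. Without any other 1 of the 4 libraries few or none of either list were called. Lamb1 lost its call in 9 and Scara5 in 7 of the 15 alternatives run, and neither kept it in every omission of 1 library. Skeletal muscle (20 tested), endothelium (19), T and natural killer cells (6) and red cells (5) had 0 calls, with none in muscle, T cells or red cells and 3 lower in endothelium at an unadjusted p under 0.05. The muscle gene Ckm was at 0 and 0 FPKM in iBAT, against 0 and 0.0345 FPKM in aWAT. Cold sWAT held muscle RNA, with 38.6 and 93.9 FPKM of Ckm. The summed muscle list was 793.5 and 1699 FPKM there, 57.6 and 53.5 FPKM in cold iBAT, and 65.9 and 68.8 FPKM in cold aWAT. The part of muscle in the sWAT values was not tested. The red cell sum was higher in the male library of each depot in the cold, at 257 and 2073 FPKM in iBAT, against 238 and 2005 FPKM in aWAT. In the warm it was not, at 833 and 745 FPKM in iBAT, against 1587 and 844 FPKM in aWAT.

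**Figure D5:**
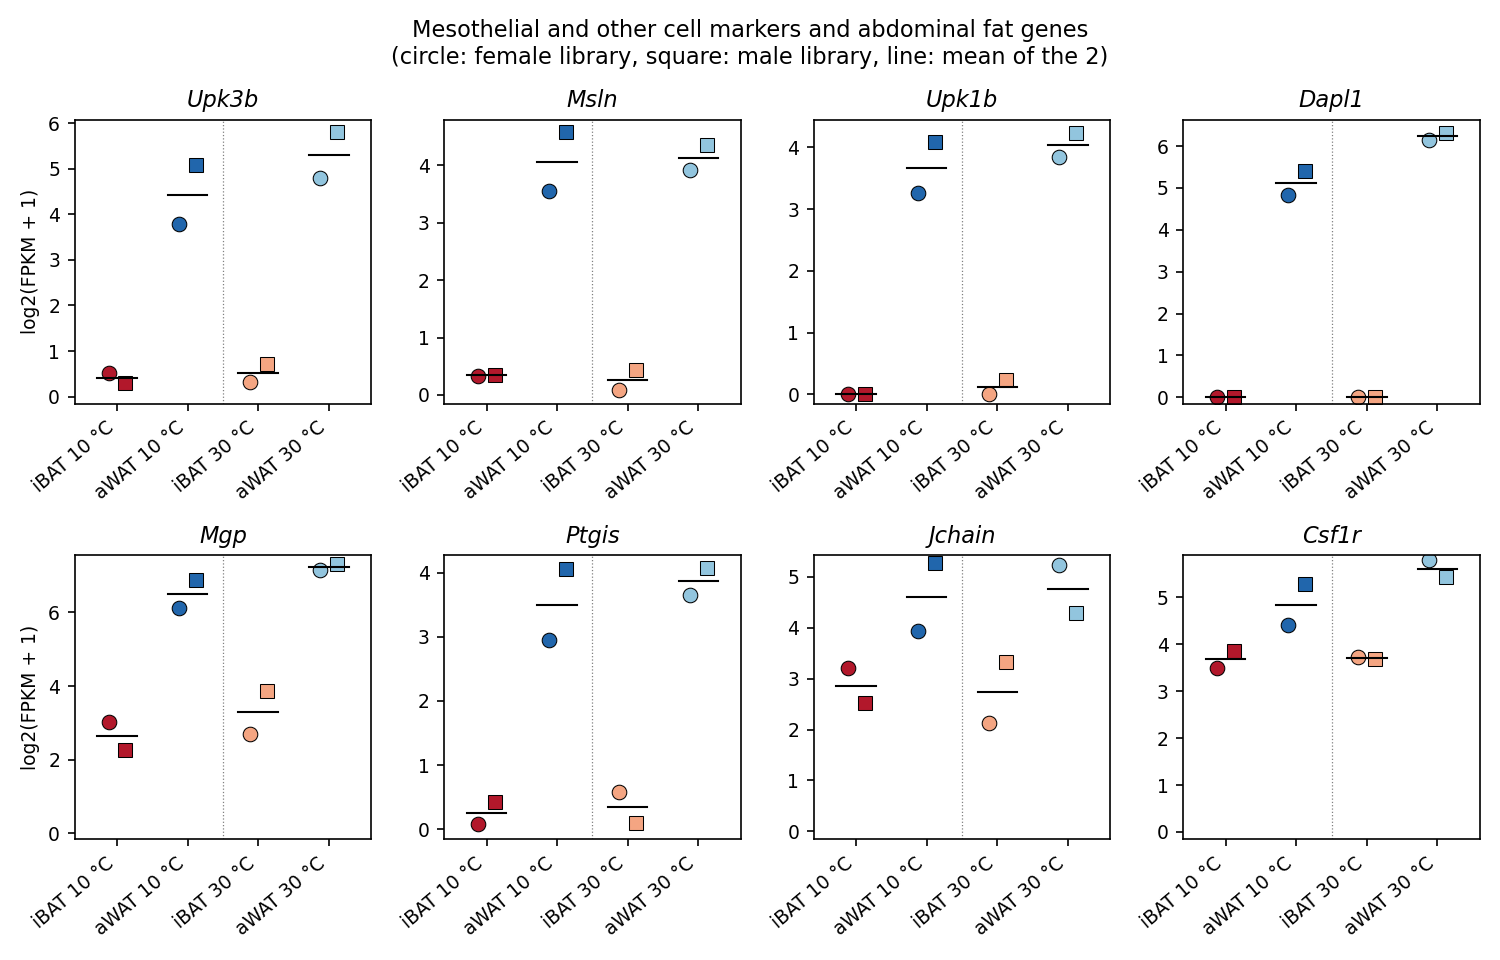
Expression of 3 mesothelial genes (Upk3b, Msln, Upk1b), 3 further genes lower in iBAT (Dapl1, Mgp, Ptgis), the plasma cell gene Jchain and the macrophage gene Csf1r in log2(FPKM + 1) by depot and temperature; circles are female libraries, squares male libraries and lines the mean of the 2. All 4 iBAT libraries of the first 6 genes lie below all 4 aWAT libraries, and in the cold the male aWAT library is above the female one in every panel.

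Of 15 tested genes of white fat hormones and markers, 0 were higher and 3 lower in iBAT (Hoxc8, Hoxc9 and Tcf21, all positional genes), with 8 below at an unadjusted p under 0.05. Without the male iBAT library 1 was called, and 2 without the female iBAT or the male aWAT library. Lep, the satiety hormone leptin, had 29.7 and 53.4 FPKM in iBAT, against 93.6 and 1151 FPKM in aWAT (-2.87 ± 1.19, adjusted p = 0.335). The groups did not overlap, as for 31.7% of all genes tested in that direction, and the male aWAT library stood far above the female one. Adipoq, adiponectin, had 267 and 144 FPKM in iBAT, against 392 and 579 FPKM in aWAT (-1.13 ± 0.35, adjusted p = 0.156). Of 27 secreted factors, Lep and Adipoq among them, Fetub was higher, Bmp4 and Rarres2 lower. Bmp4, a growth factor of fat commitment, had 0.669 and 0.423 FPKM in iBAT, against 3.51 and 8.29 FPKM in aWAT (-1.93 ± 0.32, adjusted p = 0.0178). Rarres2, the chemoattractant chemerin, had 69.5 and 81.4 FPKM in iBAT, against 216 and 281 FPKM in aWAT (-1.55 ± 0.25, adjusted p = 0.0124). Wnt2b, a Wnt ligand, was the 1 called of 24 genes of Wnt and retinoic acid signalling, with 0.199 and 0.649 FPKM in iBAT, against 2.90 and 5.24 FPKM in aWAT (-1.67 ± 0.32, adjusted p = 0.0317). The synthesis of fatty acids had 0 calls in 18 genes, with 1 below at an unadjusted p under 0.05, and Fasn, the fatty acid synthase, had 73.6 and 10.7 FPKM in iBAT, against 107 and 43.3 FPKM in aWAT.

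Among the largest higher genes of iBAT outside the lists, Kng2, a kininogen, had 87.4 and 109 FPKM in iBAT, against 15.3 and 5.27 FPKM in aWAT (3.43 ± 0.39, adjusted p = 0.00482). It has a near copy, Kng1, with which reads could be shared, so its value is uncertain. Sult1e1, which sulphates estrogen, had 13.8 and 30.5 FPKM in iBAT, against 0.931 and 1.66 FPKM in aWAT (3.40 ± 0.59, adjusted p = 0.0377), while the warm iBAT libraries had 4.80 and 0.513 FPKM. Crym, which binds thyroid hormone in the cell, had 14.6 and 6.15 FPKM in iBAT, against 1.05 and 0.939 FPKM in aWAT (2.55 ± 0.33, adjusted p = 0.00958). Etnppl, an enzyme of phosphoethanolamine breakdown, had 9.15 and 8.39 FPKM in iBAT, against 2.01 and 1.12 FPKM in aWAT (2.10 ± 0.26, adjusted p = 0.0077). Its warm difference was larger, with 41.3 and 34.5 FPKM in iBAT, against 0.258 and 0.722 FPKM in aWAT (change -2.78 ± 0.36, adjusted p = 0.0206). Fetub, a secreted protease inhibitor known from liver and counted with the secreted factors above, was seen in cold iBAT and aWAT. It had 13.9 and 10.3 FPKM in iBAT, against 5.31 and 4.24 FPKM in aWAT (1.32 ± 0.21, adjusted p = 0.0368). In cold sWAT it had 0.129 and 0 FPKM, and in warm iBAT and aWAT at most 0.178 FPKM. The change of its depot difference did not pass the test (adjusted p = 0.16). Crip3, Aard, Serpinb5, Asb5, Sesn3 and Mreg were higher as well, with relative differences between 1.59 and 2.57. Serpinb5, the protease inhibitor family member maspin, had 6.08 and 9.18 FPKM in iBAT, against 1.52 and 1.59 FPKM in aWAT.

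Among the lower genes, Dapl1 was listed at 0 in both iBAT libraries, against 27.3 and 41.1 FPKM in aWAT (adjusted p = 0.00672). It was at 0 in warm iBAT too, against 69.8 and 78.8 FPKM in warm aWAT. Mgp, which keeps soft tissue from calcifying, had 7.11 and 3.81 FPKM in iBAT, against 69.1 and 116 FPKM in aWAT (-3.71 ± 0.46, adjusted p = 0.00499). Ptgis, prostacyclin synthase, had 0.0642 and 0.338 FPKM in iBAT, against 6.74 and 15.6 FPKM in aWAT (-3.10 ± 0.37, adjusted p = 0.00396). Cold sWAT had 1.20 and 1.58 FPKM of Ptgis and 8.20 and 19.5 FPKM of Mgp, between the other depots. Hspb8, a small heat-shock protein, had 5.13 and 4.45 FPKM in iBAT, against 60.8 and 38.2 FPKM in aWAT (-2.95 ± 0.48, adjusted p = 0.0167). Cpe, carboxypeptidase E, which trims prohormones, had 2.86 and 3.25 FPKM in iBAT, against 13.8 and 40.1 FPKM in aWAT (-2.46 ± 0.43, adjusted p = 0.0249). Ggta1 and Cdca7l were listed at 0 in both cold iBAT libraries, against 22.0 and 16.2 FPKM and 8.02 and 27.4 FPKM in cold aWAT, yet in the warm Cdca7l had 18.9 and 6.35 FPKM in iBAT, against 39.2 and 18.6 FPKM in aWAT.

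Most genes called in the cold were called in the warm as well. Both calls come from 1 fit with a shared spread for each gene, so they are not independent. Of the 19 higher genes 15 were higher in the warm, against 7.66% of all genes, which is 78.9% of the cold list and 1.78% of the warm one. Of the 71 lower genes 65 were lower in the warm, against 12.6% of all genes, 91.5% of the cold list and 4.69% of the warm one. Read from the other side, the 844 genes higher in warm iBAT had a median difference of 1.33 in the warm and 0.46 in the cold, and the 1386 lower ones -0.96 and -0.40. These genes were chosen on the warm values, so a smaller value in the cold is no test.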

How the data were processed

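The authors deposited FPKM values for 14871 genes in 20 libraries, 1 column a library, and none of their columns was left unmapped; bat genes carried mouse identifiers, of which 14723 had a symbol and 148 did not. The submitters' processing notes name CASAVA 1.8. Not given in the sources used here are the aligner, the counter, the build and how bat reads came to carry mouse gene names. FPKM are not counts, so no count test was used. The 11025 genes that reached 1 FPKM in 2 or more of the 12 bat libraries were taken as log2(FPKM + 1) and fitted with limma 3.58.1 in R 4.3.3 (6 groups of 2, empirical Bayes with an intensity trend, two-sided). A gene could pass this filter through 1 depot alone, as some called positional and mesothelial genes did without iBAT. List sums also hold members that did not pass it. Spread was thus shared over groups; p-values are of differences before the median was taken off, adjusted by Benjamini and Hochberg over all genes of a comparison; a gene was called below 0.05. An exact permutation of 2 against 2 cannot go below p = 0.333 and was not used.

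Named genes are up to 15 higher and 15 lower called genes whose higher group averaged 5 FPKM or more and whose sexes moved alike, up to 5 of the temperature change, 21 core genes, and members of 35 gene lists; Emilin3, Tmem98, Enpp6 and list members beyond 5 a list or not called were added after their values were seen. The comparison, members and lists were chosen with earlier results of these data known. Relative depth came from genes under 0.2 FPKM, as ratios of whole numbers up to 5 within 0.5%; totals are unknown, so counting intervals were not computed. Alternatives varied the pseudocount, filter, scaling, trend, sex block and libraries. Some genes are not reported here.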

Additional observations from a re-analysis of the deposited data

Results flagged for a closer look

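For 9 of the genes named, the difference between iBAT and aWAT itself differed between 10 °C and 30 °C by the interaction term of the limma fit (adjusted p under 0.05, 2 libraries per group). For each the change, 10 °C minus 30 °C on the relative log2(FPKM + 1) scale, was negative. Ucp1 changed by -8.57, Pmp2 by -5.04, Serhl, a hydrolase-like gene, by -4.01 and Eef1a2, a translation factor with a near copy, by -3.66. Fatty acid oxidation genes followed, with Hadhb at -3.48, Acadm at -2.86 and Cpt1b at -2.10. Enpp6, a choline-specific phosphodiesterase, was at -3.20 and Etnppl at -2.78. In each of the 9 both cold aWAT libraries lay above both warm ones, as for Serhl with 47.1 and 51.2 FPKM in cold aWAT, against 2.36 and 0.935 FPKM in warm aWAT. Etnppl and Enpp6 were also lower in both cold than in both warm iBAT libraries. Ucp1 passed the test under each of its 19 alternatives; Pmp2 lost it in 3, and Enpp6 in 13.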

How the results depend on the processing

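With 2 libraries per group, counts of calls were unstable, and the cause was not tested. At 10 °C the 19 higher genes were 34 with no filter, 12 with at least 5 FPKM, 53 with a sex block within temperature and 0 in the 4 libraries alone, and between 5 and 49 when 1 library was left out. The 71 lower genes were 46 with a pseudocount of 5 FPKM, 46 after quantile normalization, 237 with the block within temperature, 0 in the 4 libraries alone, and between 10 and 164. At 30 °C the 844 higher genes were 517 and the 1386 lower 785 in their 4 libraries alone; the lower were 2256 with the block within temperature, and leaving out 1 library gave between 416 and 678 higher and between 605 and 1026 lower. Median-ratio scaling gave 1066 higher and 984 lower (52% higher, against 37.8%) and quantile normalization 1104 and 1082 (50.5%). For the change with temperature, the 37 more negative genes were 19 with no filter, 16 with median-ratio scaling, 110 with the block within temperature, 4 in the 8 libraries of the comparison, and between 1 and 66; the 0 more positive ones were 3 with a pseudocount of 5, 2 with no filter, with at least 5 FPKM and after quantile normalization, 4 with the sex block, 21 with the block within temperature, and between 0 and 10.

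As a replicate block, sex over all groups gave 20 higher and 90 lower genes at 10 °C. Female minus male differences of iBAT and aWAT correlated at 0.41 in the cold and 0.31 in the warm, but at -0.08 or -0.09 across temperatures, so the block within temperature was added after seeing the data. The labels do not tie libraries to animals, and the samples share only a sex and a number.

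Uncalled genes that turned sign when 1 library was left out were Dio2 (between -1.28 and 0.52), Ppargc1a (between -0.13 and 0.80), Prdm16 (between -0.33 and 1.87), Fasn (between -2.41 and 0.26) and Pparg (between -0.047 and 0.29, and -0.0497 after quantile normalization). None of the named genes called in the cold turned sign in the alternatives run.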
